A study of Homo sapiens with 6 samples.

Results

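GEN2.2 is an established human cell line grown from a leukaemia of plasmacytoid dendritic cells, and this is a description of its transcripts before any stimulus. The series held 6 Illumina HumanHT-12 v4 bead arrays, on which labelled RNA binds short gene-specific probes. The 3 arrays described here carried RNA of untreated GEN2.2 cells growing in log phase in RPMI 1640 medium with 10% fetal bovine serum. The other 3 carried RNA of cells given the CpG oligonucleotide ODN2006 and were not used, so nothing below is a response to treatment. Each array received amplified RNA made from 300 ng of total RNA. Nothing in the labels tells if these replicates were grown apart, so the spread between them may be technical. All 3 came from 1 leukaemia line, and no healthy plasmacytoid dendritic cells were measured beside it.

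A gene entered the description when at least 1 of its probes had a detection p under 0.01 on all 3 arrays, the detection p being the scanner software's comparison of a probe with negative control beads. Its brightest such probe by mean raw signal stood for the gene. By this rule 8501 of the 20034 genes with a symbol on the array were detected, which is 42.4%. Levels are given as background-corrected, quantile-normalized log2 intensity, in the order replicate 1, 2 and 3, and as a percentile among the 8501 detected genes, where 100 is the brightest. Mean levels of the detected genes ran from 5.31 to 14.29 with a median of 7.80, and the 90th percentile lay at 10.65. Probes bind with different strength, so a percentile is the place of a probe's signal and not a number of transcripts. For 1937 genes with at least 2 detected probes, the gap between the 2 brightest was 1.02 log2 units at the median, whereas the SD of a gene between the 3 arrays had a median of 0.154. Levels of different genes that lie closer than that gap cannot be put in order, and a rank or percentile given for them is only the place of the probe. Levels further apart than that are not safely ordered either, since the gap was over 2 log2 units in 25.9% of the 1937 genes. Where only a mean is given, it is over 3 arrays, and the SD of the 539 list members detected had a median of 0.140 and reached at most 0.498, in ICAM1.

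Plasmacytoid dendritic cells sense nucleic acids in endosomes through TLR7 and TLR9, which signal through MYD88 to IRF7 and NF-kB. They are known for releasing large amounts of type I interferon after this signal, and they owe their identity to the E protein TCF4 acting with SPIB, IRF8, RUNX2 and BCL11A. Leukaemias of these cells form blastic plasmacytoid dendritic cell neoplasm, whose cells typically carry CD4, CD56, CD123 (IL3RA), CD303 (CLEC4C) and TCL1A.

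Probes detected per array numbered 14827, 14924 and 15226 of 47218, and the median raw signal was 121, 112 and 107. Across the detected genes, log2 levels correlated at a Pearson r of 0.992 between replicates 1 and 2, 0.985 between 1 and 3 and 0.988 between 2 and 3. These are correlations across genes of arrays made from 1 line, and genes are not independent replicates. Replicate 3 stood slightly apart, since 45 genes differed from replicate 1 and 19 from replicate 2 by over 1 log2 unit, against 7 between replicates 1 and 2.

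The label of the line was set first against 45 plasmacytoid dendritic cell identity genes with a probe. Of these, 32 were detected (71.1%, against 42.4% of all genes on the array), 2 were detected on 1 or 2 arrays and 11 on none. The median percentile of the detected members was 78.1, where all detected genes have 50 by construction. Counts of the lists below are likewise read against 42.4%, and their median percentiles, taken over detected members, against 50. IRF8, a factor needed by dendritic cell progenitors, gave 12.47, 12.52 and 12.22 (percentile 97.1). IRF7, the main inducer of interferon-alpha genes, gave 11.10, 10.84 and 10.38 (percentile 91.0). TCF4, the E protein at the head of the programme, gave 10.08, 10.11 and 9.49 (percentile 83.1). In all 3 genes replicate 3 was the lowest array, and all 3 values of each lay above the median of detected genes.

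Further identity genes filled the bright end of the list. LAMP5, a lysosomal membrane protein of these cells, gave 11.45, 11.68 and 11.62, and GZMB, the serine protease granzyme B, gave 10.89, 10.84 and 11.13. TCL1A, a co-activator of AKT kinase, gave 10.85, 10.47 and 10.34. CCDC50, ITM2C, MZB1 and PLAC8 lay between 10.42 and 10.85 on average, and BCL11A, a zinc finger repressor, stood at 9.73. CD4, the T helper co-receptor that plasmacytoid dendritic cells also carry, gave 9.07, 9.27 and 9.53.

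Transcripts of surface proteins by which plasmacytoid dendritic cells are recognised were detected as well. NRP1 (CD304), a semaphorin receptor, gave 7.89, 8.36 and 8.79 (percentile 60.7). IL3RA (CD123), the alpha chain of the interleukin-3 receptor, gave 7.35, 7.76 and 7.78 (percentile 46.6). CLEC4C (CD303), an inhibitory C-type lectin, gave 6.64, 6.87 and 7.10 (percentile 31.2), and its other probe averaged 6.56. In each of these 3 surface genes replicate 1 was the lowest array and replicate 3 the highest. SPIB, an Ets factor of the lineage, gave 7.89, 7.46 and 7.88, and RUNX2, which acts in the exit of these cells from bone marrow, gave 8.07, 8.01 and 8.34.

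Several defining genes were not detected on any array. LILRA4 (CD85g or ILT7), an inhibitory receptor that binds BST2, had 1 probe at 4.99, 5.18 and 5.19. PTCRA, the pre-T-cell receptor alpha chain transcribed in human plasmacytoid dendritic cells, averaged 4.68 on its brightest probe, and BLNK, a B-cell linker protein, averaged 4.70. SERPINF1, SMPD3, CUX2, DNASE1L3, CLIC3, ASIP, COBLL1 and ZFAT were also detected on no array. A probe below detection bounds the signal of that probe and does not show that the transcript was absent.

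**Figure D1:**
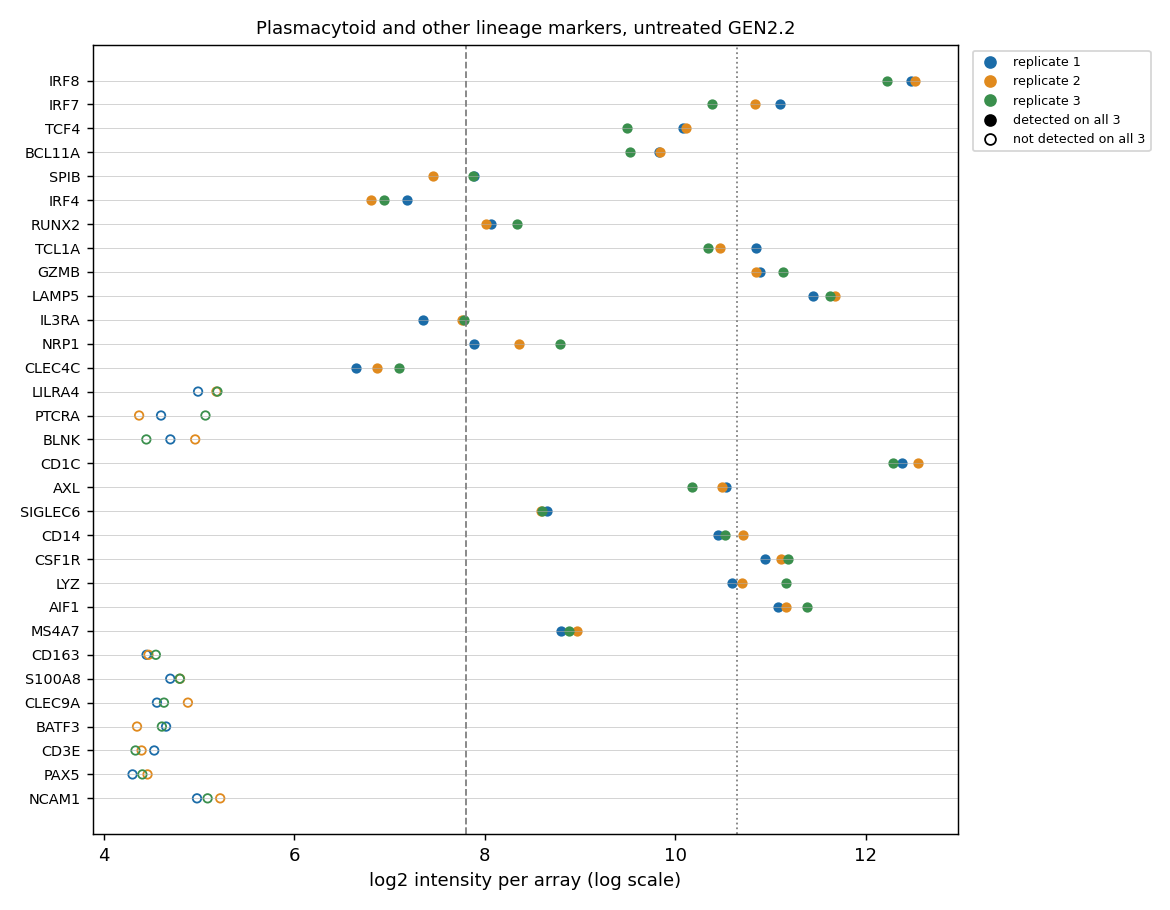
Log2 intensity of 31 plasmacytoid and other lineage markers on each of the 3 untreated arrays, with filled circles for genes detected on all 3 and open circles for the others. The dashed line is the median of detected genes (7.80) and the dotted line their 90th percentile (10.65). IRF8 and CD1C lie to the right of the dotted line on all 3 arrays, whereas LILRA4, PTCRA, BLNK and NCAM1 lie at the left edge as open circles.

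Markers of other cell types were read from the same arrays, because bulk RNA cannot separate a few cells of another type from a low level in every cell, nor fewer cells of a type from less RNA per cell. Of 16 monocyte and macrophage markers with a probe, 9 were detected, with a median percentile of 89.2. CST3, the protease inhibitor cystatin C, stood at 14.14 and AIF1, an actin-binding protein of macrophages, at 11.21. CSF1R, the receptor of macrophage colony-stimulating factor, gave 10.94, 11.11 and 11.19, and LYZ, encoding lysozyme, gave 10.59, 10.70 and 11.16. The other LYZ probe, also detected, averaged only 5.69. CD14, the lipopolysaccharide co-receptor, gave 10.45, 10.71 and 10.52, with 8.15 on its other probe. FCN1, VCAN, S100A8, S100A12, CD163, MRC1 and FCGR1A, which are defining monocyte or macrophage genes, were detected on no array. Summed over the 16 markers, the background-corrected linear signal ran from 26596 to 30240 per array, against 30831 to 32240 for the 45 plasmacytoid identity genes, although sums over different probes are not comparable as amounts of RNA. CST3 alone made up 62.6% to 65.4% of the monocyte sum, and without it the other 15 markers summed to 9209 to 11317. The part of other cells in these levels was not tested.

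Conventional dendritic cell markers were detected in 12 of 17 cases (70.6%), with a median percentile of 67.5. CD1C, which presents lipids and marks conventional dendritic cells of type 2, gave 12.38, 12.55 and 12.29, although its other probe averaged 7.26. AXL, a receptor kinase, gave 10.53, 10.49 and 10.17, and SIGLEC6, a sialic acid-binding lectin, gave 8.65, 8.59 and 8.60. AXL and SIGLEC6 together mark a blood dendritic cell population that shares genes with plasmacytoid dendritic cells. CLEC10A, a galactose lectin, averaged 10.14 and was detected by all 3 of its probes. CLEC9A, XCR1, THBD, BATF3 and CLNK, which mark conventional dendritic cells of type 1, were detected on no array, while CADM1, another marker of that type, averaged 9.52. WDFY4, a further list member linked to that type, was detected at percentile 24.4.

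Lymphoid and blood cell markers were detected at shares near or below the 42.4% of all genes. Of 18 T and NK cell markers with a probe 7 were detected (38.9%), which is close to the share of all genes. Their median percentile was 29.2, and they were led by the scavenger receptors CD6 at 9.05 and CD5 at 8.15. The T-cell receptor subunits CD3D, CD3E and CD247 were not, and CD3G averaged 5.78. Of 12 B cell markers 3 were detected (25%), with CD79B at 7.90 and neither PAX5 nor EBF1 detected. Counts were 4 of 17 for granulocytes and progenitors, 1 of 14 for red cells and platelets, and 5 of 17 for stromal and epithelial cells, where TIMP1, a metalloprotease inhibitor that many cells secrete, stood at 12.30. All 5 of these shares of detected members lay below the 42.4% of all genes on the array, that of T and NK cell markers only slightly. The identity list was detected at about the same share as the conventional dendritic cell list (71.1% and 70.6%) and had a lower median percentile than the monocyte list (78.1 and 89.2), so these counts do not single out the labelled cell type. With 13 of the 45 identity genes not detected on all 3 arrays, the cells are called GEN2.2 below.

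Among the Toll-like receptors, the membrane sensors of microbial products, 6 of 10 were detected (60.0%), with a median percentile of 29.1. TLR7, which binds single-stranded RNA, gave 8.69, 8.71 and 9.16 (percentile 69.8). TLR9, which binds CpG DNA and is the receptor for the oligonucleotide used elsewhere in the series, gave 6.94, 7.23 and 7.31 (percentile 37.0). TLR9 was below the median of detected genes on every array, and TLR7 above it on every array. Their levels are read from different probes, and no ratio of the transcripts follows from them.

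The remaining Toll-like receptors were dim or undetected. TLR6, a partner of TLR2 for bacterial lipopeptides, gave 7.49, 7.68 and 7.73. TLR1 gave 5.86, 6.54 and 6.82, and TLR10, whose ligands are less well defined, gave 6.33, 6.15 and 6.75. TLR8, the second sensor of single-stranded RNA, gave 5.40, 5.83 and 5.23 on 1 of its 3 probes (percentile 1.74). TLR2 (lipopeptides), TLR3 (double-stranded RNA), TLR4 (lipopolysaccharide) and TLR5 (flagellin) were detected on no array, with means between 4.42 and 4.56. Only 3 Toll-like receptors remained when the detection p had to be 0 on all 3 arrays, a stricter rule.

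Transcripts of proteins that carry these receptors to endosomes were bright. HSP90B1, the chaperone gp96 on which Toll-like receptors fold, averaged 12.68 (percentile 97.7). UNC93B1, which escorts TLR7 and TLR9 to endosomes, gave 10.83, 11.01 and 11.01, and SLC15A4, a transporter needed for their signalling in plasmacytoid dendritic cells, gave 10.73, 10.98 and 10.87. AP3B1, a subunit of the adaptor complex that routes the receptors to the interferon-inducing compartment, averaged 10.45. CNPY3, another chaperone of Toll-like receptors, gave 9.38, 9.80 and 10.09. TASL, the partner of SLC15A4 that recruits IRF5, was detected on 2 of the 3 arrays and so is not counted.

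Of the trafficking, adaptor and kinase list 26 of 32 members were detected (81.2%), with a median percentile of 61.9, and the 3 above the 90th percentile were HSP90B1, UNC93B1 and SLC15A4. MYD88, the adaptor of TLR7 and TLR9, gave 8.06, 8.08 and 7.98 (percentile 55.0). IRAK1 averaged 10.08, IKBKG, the regulatory subunit of the IkB kinase, 9.57, and MAP3K7 (TAK1) 8.97. TBK1, the kinase of IRF3, averaged 8.85. The ubiquitin ligases TRAF3 and TRAF6 were dim, at 5.71 and 5.59, and TIRAP, SARM1 and IRAK3, a brake on the pathway, were detected on no array. PLD3 and PLD4, exonucleases that trim the DNA ligands of TLR9, averaged 8.62 and 5.70. LGMN, CTSL and CTSS, proteases that can cleave the receptors into their active form, averaged 8.20, 6.93 and 6.78.

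**Figure D2:**
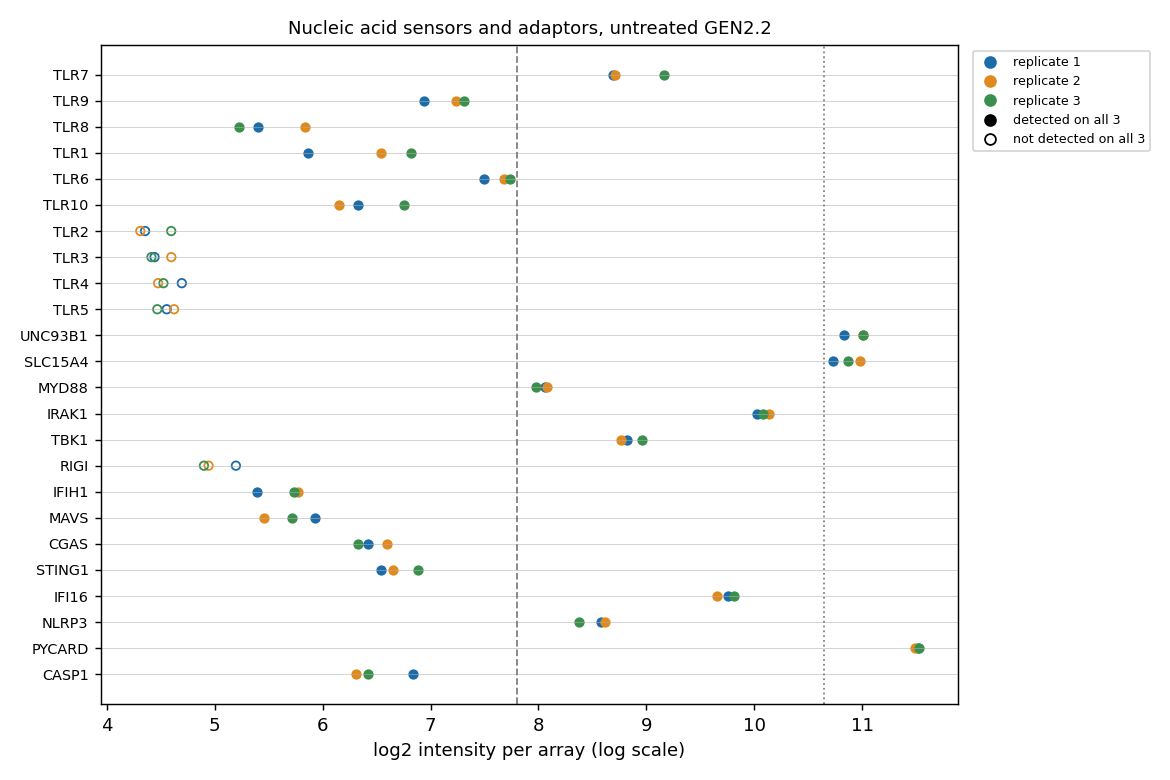
Log2 intensity of 24 genes on each untreated array, filled where detected on all 3 arrays and open elsewhere. They are Toll-like receptors, genes of their trafficking and signalling, cytosolic nucleic acid sensors with their adaptors, and inflammasome genes. The dashed and dotted lines are the median and the 90th percentile of detected genes (7.80 and 10.65). UNC93B1, SLC15A4 and PYCARD lie beyond the dotted line, TLR7 right of the dashed line, and TLR9, CGAS, STING1, MAVS and IFIH1 left of it.

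Cytosolic sensors of nucleic acids gave 15 detected members of 20 (75%). ADAR, which edits double-stranded RNA, led them with 11.46, 11.25 and 10.94 (percentile 93.4). IFI16, a nuclear and cytosolic DNA sensor, averaged 9.74, and EIF2AK2, the kinase PKR that binds double-stranded RNA, averaged 8.36. The cGAS and STING pair, which detects cytosolic DNA, gave 6.42, 6.60 and 6.33 for CGAS and 6.54, 6.65 and 6.88 for STING1. IFIH1 (MDA5) averaged 5.63 and its adaptor MAVS 5.70, and RIGI (RIG-I) gave 5.20, 4.94 and 4.90 without being detected. The DNA sensor AIM2, the exonuclease TREX1 and the nucleotide hydrolase SAMHD1 were detected on no array. Cytosolic sensors as a list had a median percentile of 44.2.

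Inflammasome genes gave 9 detected members of 16 (56.2%), with a median percentile of 39.4. PYCARD, the adaptor ASC, gave 11.52, 11.49 and 11.52 (percentile 94.9), and all 3 probes of NLRP3, a sensor of cell damage, were detected, the brightest averaging 8.53. GSDMD, the pore-forming gasdermin D, averaged 9.35. CASP1, the protease that matures interleukin-1 beta and interleukin-18, gave 6.83, 6.31 and 6.42. NLRC4, the sensor of bacterial secretion systems, and CASP5 were not detected.

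Among C-type lectin, Fc and inhibitory receptors 21 of 28 were detected (75%), with a median percentile of 60.7 and 5 above the 90th. LAIR1, an inhibitory collagen receptor, gave 13.94, 14.01 and 14.01 (percentile 99.6), but its other probe averaged 6.08. LILRB1, which binds MHC class I, averaged 13.36 on 1 of its 2 probes. TYROBP (DAP12) and FCER1G, the signalling chains that many activating receptors share, averaged 12.44 and 11.44. BST2 (tetherin), the ligand of LILRA4, gave 10.95, 11.03 and 11.03. FCER1A, the IgE-binding chain, averaged 8.16, and FCGR2A, an IgG receptor, 8.27. The endocytic lectins CD209, LY75 and MRC1 and the sialoadhesin SIGLEC1 were detected on no array.

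Interferon receptors were all detected, within a list of receptors and JAK-STAT genes of which 14 of 16 were (87.5%), with a median percentile of 59.8. IFNAR1 and IFNAR2, the chains of the type I receptor, averaged 7.44 and 8.50, and IFNGR1 and IFNGR2, those of the type II receptor, 12.30 and 9.84. For the type III receptor, IFNLR1 averaged 8.11 and IL10RB, shared with the interleukin-10 receptor, 10.94. TYK2, the kinase bound to IFNAR1, gave 11.21, 11.45 and 11.07. JAK1 was at 5.65, 6.43 and 6.42 and JAK2 at 5.64 on average, while JAK3 and STAT4 were not detected.

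Of 34 interleukin and growth factor receptors with a probe, 21 were detected (61.8%), with a median percentile of 47.3. CSF2RA, the alpha chain of the GM-CSF receptor, gave 12.60, 12.76 and 12.57, and all 4 of its probes were detected. CSF2RB, the beta chain shared by the receptors for interleukin-3 and GM-CSF, was detected on 2 of the 3 arrays and is not counted. IL13RA1 averaged 10.93, IL10RA 9.62 and IL7R, a receptor for interleukin-7 and TSLP, 8.93, whereas CRLF2, the TSLP receptor's other chain, was not detected. IL18R1, the binding chain of the interleukin-18 receptor, averaged 8.84 and its partner IL18RAP 6.45. FLT3, the growth factor receptor of dendritic cell progenitors, gave 6.97, 7.61 and 7.52, and KIT, the stem cell factor receptor, averaged 6.34. The interleukin-2 and interleukin-15 receptor genes IL2RA, IL2RG and IL15RA were detected on no array, and IL2RB on 1.

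Of 20 TNF receptor family members with a probe 9 were detected (45.0%), close to the 42.4% of all genes, with a median percentile of 74.5. TNFRSF14 (HVEM) averaged 10.41, TNFRSF1B and TNFRSF1A, the receptors of TNF, 10.05 and 9.47, and TNFRSF21, a death receptor found on plasmacytoid dendritic cells, 9.62. LTBR, the receptor for lymphotoxin beta, averaged 8.85. CD40, through which T cells activate dendritic cells, gave 6.81, 6.64 and 7.13. The B-cell survival receptors TNFRSF13B, TNFRSF13C and TNFRSF17 were detected on no array.

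Of 28 chemokine and chemoattractant receptors 15 were detected (53.6%, against 42.4% of all genes), with a median percentile of 51.2. CCR6, the receptor for CCL20, gave 13.90, 14.01 and 13.64 (percentile 99.3) on 1 of its 3 probes, while its others averaged 5.27 and 4.47. CCR7, which guides cells to lymph nodes, gave 9.99, 10.11 and 10.12, and CXCR3, which guides plasmacytoid dendritic cells to inflamed tissue, gave 9.38, 9.38 and 9.66. GPR183 (EBI2), the oxysterol receptor, averaged 10.03 and was detected by all 3 of its probes. CXCR4, the bone marrow retention receptor, averaged 8.97. CX3CR1 gave 7.15, 7.49 and 7.98 and CCR2, a monocyte receptor, 5.96, 6.28 and 6.60, both lowest on replicate 1. CCR9 was detected on 1 array only, and CCR10, CXCR5, CXCR6 and XCR1 on none. Replicate 3 was the highest array for 11 of the 15 detected receptors, against 3046 of 8496 detected genes.

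Lineage factors were read in 3 groups. Of the 8 interferon regulatory factors with a probe, 7 were detected (87.5%), with a median percentile of 70.3. Beside IRF8 and IRF7, IRF1 averaged 9.04 and IRF9, the DNA-binding part of the interferon-activated complex ISGF3, gave 8.44, 9.15 and 9.09. IRF3, the ubiquitous partner of TBK1, averaged 8.23 and IRF5, which acts below MYD88, gave 8.05, 8.27 and 7.51. IRF4, a factor of plasma cells and of type 2 dendritic cells, gave 7.18, 6.81 and 6.94. IRF2, a repressor of interferon genes, was detected on 1 array. Replicate 3 was the lowest array for 4 of the 7, with a median deviation of -0.18 from the gene means. Over 8496 detected genes it was the lowest array for 3272, with a median deviation of -0.006.

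Of 13 E proteins, ID proteins and partners, 9 were detected (69.2%), with a median percentile of 72.2. ID2 and ID3, which block E proteins by binding them, gave 10.63, 10.53 and 10.55 and 10.28, 10.27 and 10.29. ID1 averaged 8.44. The E proteins besides TCF4 were dimmer, with TCF3 (E2A) at 7.96 and TCF12 (HEB) at 6.52. LYL1 and LMO2, members of haematopoietic E protein complexes, averaged 9.85 and 9.02. CBFA2T3 (ETO2), a corepressor in plasmacytoid development, was detected on 2 arrays, and TAL1 and ID4 on none. The E protein TCF4 and its inhibitor ID2 were thus both above the median of detected genes on every array.

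Other lineage factors gave 33 detected members of 47 (70.2%), with a median percentile of 48.9. RUNX3 averaged 11.11 (percentile 92.9) on 1 of its 2 probes. SPI1 (PU.1), the Ets factor of myeloid cells, gave 10.19, 10.10 and 10.61, and its other probe averaged 10.27. XBP1, the factor of secretory cells, averaged 9.55, NOTCH1 9.17, MYB 8.56 and CEBPB, a factor of myeloid cells, 9.75. ZBTB46, a factor of conventional dendritic cells, gave 7.56, 7.72 and 7.94. IKZF1 (Ikaros) gave 7.88, 7.43 and 6.91 and ZEB2, which represses ID2 in mouse plasmacytoid dendritic cells, averaged 6.25. The factors GATA1, GATA2, GATA3, EBF1, PAX5, EOMES and BCL11B, which direct red cell, T-cell, B-cell or NK-cell fates, were detected on no array.

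The interferon genes themselves stayed below the detection rule. All 20 interferon genes with a probe were detected on no array, among them IFNA2, IFNB1, IFNG and IFNL1. IFNB1 gave 4.39, 4.36 and 4.34 and IFNA2 4.53, 4.54 and 4.30. Probes for different interferon-alpha genes cover near-identical sequences and cannot be told apart with certainty.

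Genes that interferon induces were detected in 34 of 44 cases (77.3%). MX1, a GTPase against influenza virus, averaged 11.25 (percentile 93.7), IFITM2 averaged 10.92, IFI6 10.84 and ISG15, a ubiquitin-like modifier, 9.93. The IFIT genes, RNA-binding proteins that react strongly to interferon, lay lower, with IFIT1 at 7.06, IFIT2 at 6.39 and IFIT3 at 5.65. RSAD2 (viperin), USP18, GBP4 and GBP5 were detected on no array. The median percentile of the detected members was 41.5, below the 50 of all detected genes, with 6 members above the 90th percentile.

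Interleukins and growth factors were detected in 12 of 46 cases (26.1%), below the 42.4% of all genes, and the detected members had a median percentile of 63.3. IL18, a cytokine stored as a precursor that CASP1 cleaves, gave 13.83, 13.85 and 13.94 (percentile 99.4). IL10, which restrains dendritic cells and macrophages, gave 12.84, 13.03 and 12.69 (percentile 98.0), although the other IL10 probe averaged 4.42 and was undetected. MIF averaged 11.35, and VEGFB 11.13. The other VEGFB probes averaged 6.58, detected on all 3 arrays, and 4.55, detected on none. IL18BP, the soluble antagonist of interleukin-18, gave 10.68, 10.89 and 11.03 on 1 of its 5 probes. IL23A, the p19 chain of interleukin-23, averaged 7.59 and IL1B gave 5.85, 6.02 and 6.47. IL6, IL12A, IL12B, IL15, IL27, CSF1 and TGFB1 were detected on no array.

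TNF superfamily ligands gave 8 detected members of 15 (53.3%), with a median percentile of 78.5. LTB (lymphotoxin beta), the membrane chain of the lymphotoxin complex, gave 13.51, 13.55 and 13.37, with 11.96 on its other probe. TNF gave 11.81, 11.84 and 11.89 (percentile 96.0), and the 3 arrays lay within 0.154 log2 units, the median SD of a gene. LTA (lymphotoxin alpha) gave 11.07, 11.04 and 10.88. LTA, TNF and LTB are neighbours in this order on chromosome 6 in the RefSeq table, and all 3 lay above the 90th percentile. TNFSF14 (LIGHT) averaged 10.52, TNFSF15 (TL1A) 8.76, CD70 7.88 and TNFSF13B (BAFF) 6.08. The other TNFSF14 probes averaged 4.67 and 4.42 and were detected on no array. The other TNFSF15 probe averaged 4.83 and was detected on 1 array. TNFSF10 (TRAIL), a killing ligand of activated plasmacytoid dendritic cells, was detected on 2 of the 3 arrays.

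IL10 also has neighbours of its own family. IL19, next to it on chromosome 1, was detected on no array with 4.84 on its brighter probe, and IL24, further along, gave 5.34, 5.76 and 6.21.

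Chemokines formed the least detected of the ligand groups with any member, 5 of 40 (12.5%), with a median percentile of 31.6. CXCL16, a membrane-bound ligand of CXCR6, gave 9.56, 9.73 and 9.58, and CCL2, a monocyte attractant, 9.35, 9.49 and 9.99. The other CXCL16 probe averaged 4.40 and was detected on no array. CXCL8, CCL5 and CCL22 averaged 6.89, 6.73 and 6.56. CCL3, CCL4, CXCL9, CXCL10 and CXCL11, which plasmacytoid dendritic cells make after stimulation, were detected on no array.

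**Figure D3:**
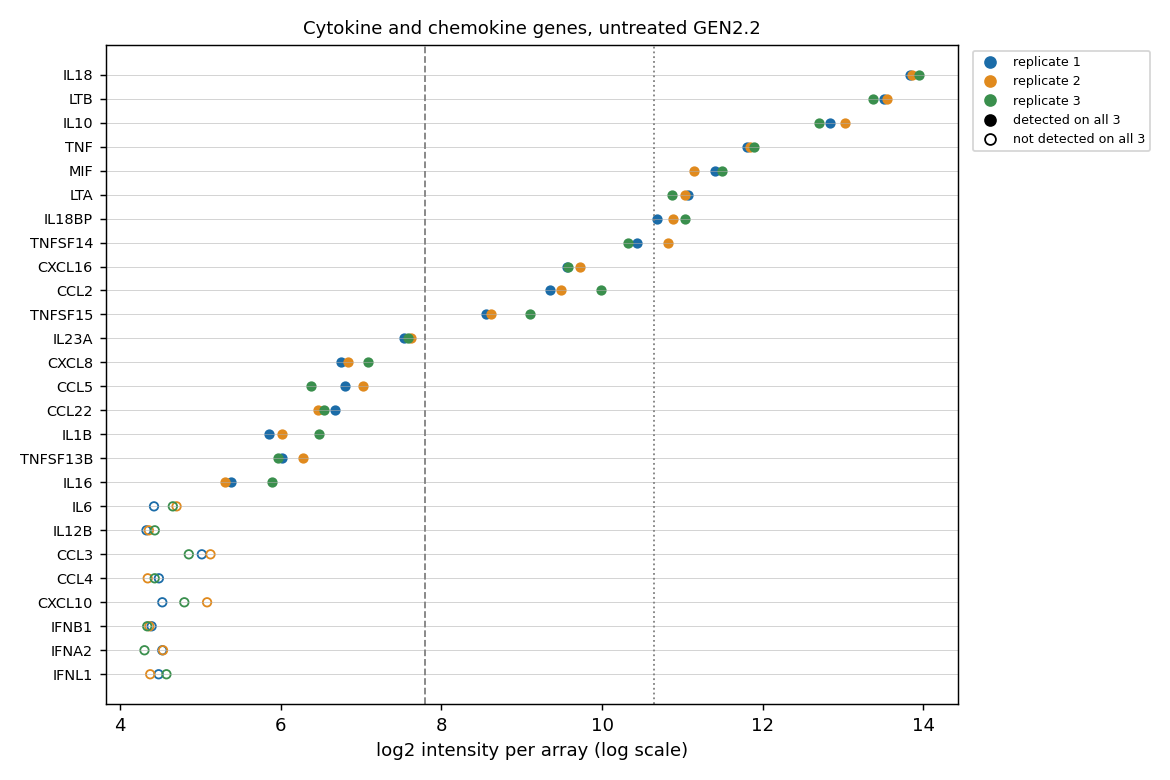
Log2 intensity of 26 cytokine and chemokine genes on each untreated array, filled where detected on all 3 arrays and open elsewhere, with the median (7.80, dashed) and the 90th percentile (10.65, dotted) of detected genes. IL18, LTB, IL10, TNF, MIF, LTA and IL18BP lie right of the dotted line on all 3 arrays. The open circles of IL6, IL12B, CCL3, CCL4, CXCL10, IFNB1, IFNA2 and IFNL1 lie between 4.30 and 5.13.

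Of the NF-kB subunits and inhibitors, 14 of 16 were detected (87.5%), with a median percentile of 48.1. NFKBIA, the inhibitor IkB-alpha, gave 11.67, 11.80 and 11.32, and NFKB1, the precursor of p50, gave 11.10, 11.03 and 10.73. RELA, the p65 subunit, gave 6.26, 6.17 and 6.37, RELB averaged 6.74 and REL was detected on 1 array. TNFAIP3 (A20), a deubiquitinase that ends the signal, averaged 7.69.

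Of the 32 MHC and antigen presentation genes with a probe 30 were detected, with 16 above the 90th percentile and a median percentile of 91.8. HLA-DRA, the alpha chain of HLA-DR, which hardly varies between people, gave 14.28, 14.36 and 14.16. CD74, the invariant chain that blocks the class II groove, gave 14.09, 14.16 and 14.10, and HLA-DPA1 13.94, 13.98 and 14.25. HLA-DPB1 lay lower, at percentile 76.0. HLA-DMA and HLA-DMB, the pair that exchanges peptides on class II, averaged 13.17 and 13.12, and HLA-DRB1 13.18. HLA-DOB, which restrains HLA-DM, was the dimmest class II gene detected, at 6.83, 6.67 and 6.85. CIITA, the coactivator on which class II genes depend, gave 7.67, 7.87 and 7.63 (percentile 48.6).

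For class I, B2M, the light chain, averaged 13.39, HLA-E 11.82 and HLA-B 11.73. HLA-C averaged 7.64 (percentile 46.7), and its other probe averaged 4.31 and was detected on no array. The peptide transporter genes TAP1 and TAP2 averaged 11.24 and 8.53. NLRC5, the coactivator of class I genes, was detected on no array. HLA genes vary between people and resemble one another, so the split of signal between their probes is uncertain.

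Lipid-presenting CD1 genes were detected in all 5 cases. CD1A gave 13.42, 13.52 and 13.32 and CD1C averaged 12.41, whereas CD1B, CD1E and CD1D averaged 9.72, 9.41 and 7.60. The 5 genes lie side by side on chromosome 1 in the RefSeq table.

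Class II promoters are known to carry a conserved unit of X and Y boxes, on which the RFX, CREB and NF-Y factors assemble and to which CIITA is recruited. The promoters of 4 class II genes are shown because all hold TGATGATG, letters of their X box region, and after it the CCAAT letters that NF-Y is known to bind. Each run is the 140 bases before the RefSeq start (GRCh38.p14), written on the gene's own strand, with TGATGATG and CCAAT, or its reverse complement ATTGG, in capitals. HLA-DMB holds CCAAT only, in the other orientation and further from TGATGATG than the first ATTGG of HLA-DRB1, HLA-DMA and HLA-DOB. Whether it is part of the Y box of HLA-DMB was not tested. HLA-DRB1 lies at chr6:32589849-32589988, HLA-DMA at chr6:32953098-32953237, HLA-DMB at chr6:32941029-32941168 and HLA-DOB at chr6:32817003-32817142, all on the minus strand.
HLA-DRB1: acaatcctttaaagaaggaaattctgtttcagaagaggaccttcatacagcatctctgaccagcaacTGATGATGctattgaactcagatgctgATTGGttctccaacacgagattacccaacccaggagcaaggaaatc
HLA-DMA: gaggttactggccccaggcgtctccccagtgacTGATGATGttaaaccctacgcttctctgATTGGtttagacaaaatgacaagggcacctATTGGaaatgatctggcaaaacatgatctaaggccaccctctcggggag
HLA-DMB: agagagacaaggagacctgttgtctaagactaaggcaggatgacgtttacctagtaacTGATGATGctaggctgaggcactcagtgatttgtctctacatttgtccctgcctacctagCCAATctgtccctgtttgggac
HLA-DOB: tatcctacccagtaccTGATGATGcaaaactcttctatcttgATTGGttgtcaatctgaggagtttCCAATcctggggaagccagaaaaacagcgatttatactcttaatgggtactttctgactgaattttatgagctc

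TGATGATG, searched on both strands in the 250 bases before the start, was present in 4 of the 9 detected class II genes and CD74 that had a promoter sequence. It was present in 0.548% of the 14407 protein-coding promoters of genes on the array. The letters were chosen after these sequences had been read, so these shares are a description only. CCAAT or ATTGG was present in 8 of the 9, and in 34.7% of all promoters. Both motifs together were found in 4 of the 9 and in 34 of the 14407. HLA-DOB held both and lay at percentile 29.4, while HLA-DRB1, HLA-DMA and HLA-DMB lay at 98.4 to 98.5. HLA-DRA had no sequence in the table.

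CD74 and HLA-DQB1 are shown for contrast, since they held CCAAT or ATTGG in these bases but not TGATGATG. CD74 (chr5:150412911-150413050, minus strand) stood at 14.12 and HLA-DQB1 (chr6:32666658-32666797, minus strand) at 10.77. A missing match says only that these letters are not in the window.
CD74: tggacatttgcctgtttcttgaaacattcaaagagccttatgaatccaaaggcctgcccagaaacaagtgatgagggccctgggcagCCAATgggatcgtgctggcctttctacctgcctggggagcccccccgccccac
HLA-DQB1: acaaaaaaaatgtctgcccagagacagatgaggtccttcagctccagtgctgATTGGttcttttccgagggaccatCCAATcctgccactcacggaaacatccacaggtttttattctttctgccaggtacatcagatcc

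Promoters of constitutive cytokines were read for other letters. Of 18 detected cytokine genes with a promoter sequence, 5 held TATAAA on the gene's own strand in the 250 bases before the start. A CpG observed-to-expected ratio of at least 0.6, from 250 bases before to 50 after the start, was found in 4 of them. Over all 14407 promoters these shares were 6.50% for TATAAA and 67.3% for the CpG ratio. The CpG ratio was also found in 2 of 12 detected chemokine receptors and in 1 of the 9 class II genes and CD74, so a low share was not particular to cytokines, and none of these shares was tested. TNF (chr6:31575425-31575564, plus strand) and IL10 (chr1:206772495-206772634, minus strand) are shown as cytokine genes above the 90th percentile with this motif in capitals.
TNF: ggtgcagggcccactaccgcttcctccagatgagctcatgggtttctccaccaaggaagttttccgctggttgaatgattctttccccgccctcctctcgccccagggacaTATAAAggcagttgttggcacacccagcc
IL10: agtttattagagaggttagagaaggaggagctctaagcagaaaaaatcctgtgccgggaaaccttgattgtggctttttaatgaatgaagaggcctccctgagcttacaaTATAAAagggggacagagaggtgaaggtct

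Across all protein-coding genes, promoters of detected genes were richer in CpG than the others. A ratio of at least 0.6 was found in 85.2% of 6896 detected genes and in 47.7% of 6492 genes detected on no array. TATAAA was found in 3.44% and 9.83% of these promoters. Among detected genes, the share with TATAAA was 3.78% in the dimmest of 10 classes of level rank and 5.38% in the brightest. Ribosomal protein genes, at the bright end, had the CpG ratio in 98.2% of 56 promoters.

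**Figure D4:**
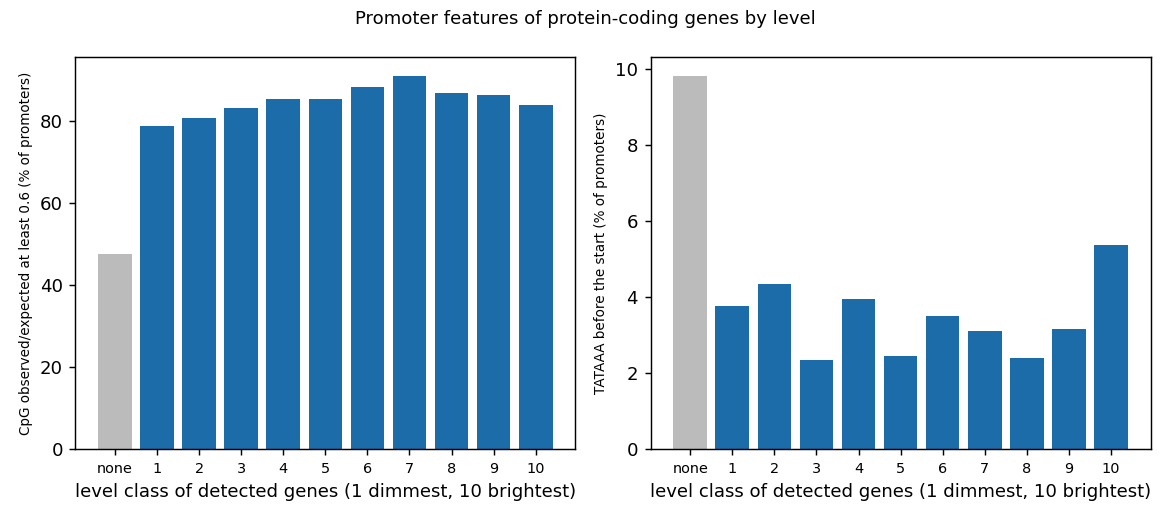
Share of protein-coding promoters (%) with a CpG observed-to-expected ratio of at least 0.6 from 250 bases before to 50 after the start (left) and with TATAAA in the 250 bases before it (right). Grey bars are genes detected on no array and blue bars detected genes in 10 classes of level rank, from 1 (dimmest). The CpG share is 47.7% in the grey bar and 78.9% to 91.1% in the blue bars, and the TATAAA share is 9.83% in the grey bar and highest among the blue bars, at 5.38%, in the brightest class.

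Co-stimulatory and adhesion genes gave 24 detected members of 31 (77.4%), with a median percentile of 74.9. ITGB2 and ITGB7, integrin beta chains, averaged 13.33 and 12.38, and ITGAL and ITGAM, alpha chains that pair with ITGB2, 9.88 and 9.47. CD86, a ligand of CD28, gave 10.65, 10.85 and 10.50 and CD83, a maturation marker, 10.19, 10.16 and 10.17. LAMP3 (DC-LAMP) averaged 9.85. CD80, the other ligand of CD28, was detected on 1 array, and CD274 (PD-L1) and PDCD1LG2 (PD-L2) on none. ICAM1, an adhesion molecule that NF-kB induces, gave 5.76, 6.69 and 6.51, lowest on replicate 1.

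Genes of granule and secreted proteins were detected in 14 of 28 cases (50%, against 42.4% of all genes), with a median percentile of 89.1 and 7 above the 90th. SRGN, the core protein of granule proteoglycan, averaged 12.84 and LGALS1 11.75. GZMB, at 10.95 on average, was the only one of the 5 granzymes with a probe to be detected, and PRF1 (perforin) and GNLY (granulysin) were detected on no array. IGLL1, a surrogate light chain of pre-B cells, averaged 10.78, and JCHAIN, the joining chain of secreted antibody that plasmacytoid dendritic cells also express, gave 10.09, 10.14 and 10.66. The neutrophil granule genes MPO, ELANE, PRTN3 and AZU1 were not detected.

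Genes linked to blastic plasmacytoid dendritic cell neoplasm were detected in 37 of 50 cases (74.0%), with a median percentile of 62.9. TCL1B, next of kin to TCL1A, gave 11.18, 11.01 and 10.97, and HES6, a helix-loop-helix factor, averaged 10.38. NCAM1 (CD56), a hallmark of the disease, had 4 probes, none detected on any array, with 4.98, 5.22 and 5.09 on the brightest. BCL2, the survival factor against which venetoclax is directed, gave 6.61 on each array (percentile 25.5), and MCL1 and BCL2L1, its relatives, averaged 8.82 and 8.52. NR3C1, the glucocorticoid receptor, averaged 5.46 (percentile 1.31). CD7 averaged 6.15, and CD38 and S100B were not detected.

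The tumour suppressor locus on chromosome 9, which is often lost in this leukaemia, was read gene by gene. All 3 probes of CDKN2A were undetected, the brightest averaging 4.52, and CDKN2B was detected on 1 array at a mean of 4.96. MTAP, the neighbour on one side, was detected at 7.34, 7.07 and 6.82. These are transcript signals, and the copy number of the locus was not measured. RB1 averaged 7.70, CDKN1B 7.26 and CDKN1A, the cell cycle inhibitor p21, 9.97.

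Cell cycle genes were detected in 34 of 35 cases, with a median percentile of 82.6. MCM7, a helicase subunit, averaged 12.50, CDK4 11.69 and CCND3 and CCND1, its cyclin partners, 11.31 and 10.71, while CCND2 was at 5.80. TOP2A averaged 10.82 and MKI67 7.42. Genes of the secretory pathway were detected in 37 of 41 cases with a median percentile of 89.8. ATF4, a factor of the stress response, averaged 12.51, 8.52 and 7.79 on its 3 probes. HSPA5 (BiP) averaged 8.35 and DERL3 6.85. Of the 37, 22 had their highest value on replicate 3, against 3046 of 8496 detected genes. Glycolysis genes were detected in 18 of 19 cases, with a median percentile of 89.9, with ENO1 at 13.11, LDHB at 12.94 and LDHA at 12.77.

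**Figure D5:**
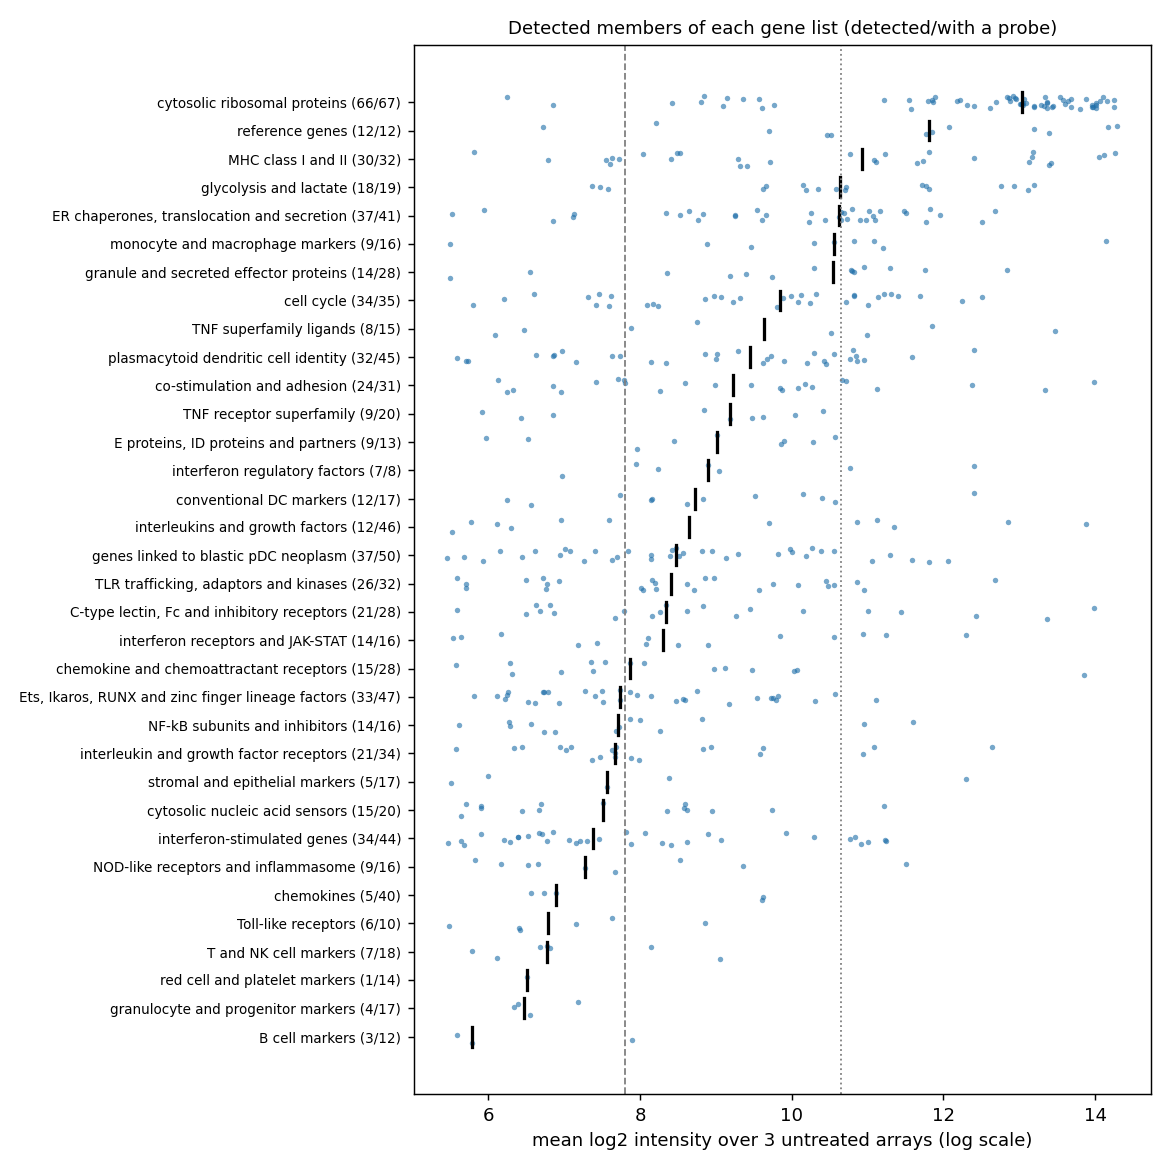
Mean log2 intensity over the 3 untreated arrays for the detected members of each gene list (points), with the list's median as a black bar. Counts after each name are members detected over members with a probe. The dashed line is the median of all detected genes (7.80) and the dotted line their 90th percentile (10.65). Ribosomal protein, reference and MHC genes lie at the top, and B cell, granulocyte, red cell and platelet, T and NK cell markers and the Toll-like receptors at the bottom.

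Reference and ribosomal protein genes varied widely among themselves. GAPDH gave 13.29, 13.18 and 13.12 and ACTB 14.16, 14.20 and 14.14. PPIA, encoding cyclophilin A, averaged 6.72 (percentile 28.0) on its only probe. Of 67 ribosomal protein genes 66 were detected, with a median percentile of 98.3, yet RPL37 and RPL28 stood at 6.25 and 6.85 and RPL10 was detected on no array. The part of the probe in these differences was not tested.

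The 20 genes with the brightest probes lay between 14.10 and 14.29, too close together to be put in order. They were EEF1A1, an elongation factor, HLA-DRA, ORC6, a subunit of the origin recognition complex, RPS12, RPL41, ATP5F1B, TCAF1, FARSB, XPNPEP3, RPL13AP5, ACTB, RPL18, CST3, LILRB3, CREB1, GABPB2, CD74, TMSB4X, RPS29 and GJC1. Several of them rested on 1 probe of those on the array. ORC6 averaged 8.42 on its other probe, and TCAF1, FARSB, XPNPEP3 and GJC1, a gap junction protein, averaged 4.36, 4.93, 4.78 and 4.40 on probes detected on no array. LILRB3, an inhibitory receptor of myeloid cells, averaged 5.07 and GABPB2 5.22 on their other probes. The 100 brightest genes carried 20.3% of the summed raw signal of detected genes, and the 1000 brightest 60.8%.

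The widest gaps between arrays were found in NBPF9 with 12.61, 12.45 and 10.13, PTPRC with 7.93, 7.66 and 5.78, and NBPF10 with 12.45, 12.39 and 10.40. PTPRC encodes CD45, the phosphatase of all white blood cells. NBPF9 and NBPF10 belong to a family of near-identical copies, so their probes may not separate them. ITPRIPL2, CDK11A, SF1, GOLGA8A and TGFBRAP1 were also lowest on replicate 3, and TIMM8B was highest on replicate 1 and PPIB on replicate 3. Of the 57 genes with a range over 1 log2 unit, replicate 3 was the farthest array in 39, replicate 1 in 14 and replicate 2 in 4.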

How the data were processed

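Probe intensities of the 3 untreated arrays were taken from a table that the authors deposited, non-normalized per the file headers and on a linear scale for 47218 probes, with a detection p-value deposited beside each intensity. Beside these stood the authors' deposited log2 values, for which limma is named, without a version, per the submitters' processing notes. They served as an alternative, and differed from the values computed here by at most 0.0187.

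Background was removed with neqc of limma 3.58.1 (R 4.3.3), which applies normexp, here with the negative control beads' distribution estimated through the detection p-values, adds an offset of 16 and quantile-normalizes the 3 untreated arrays. The steps were tested on simulated data. Quantile normalization forces the same distribution on every array, so a shift of all genes between replicates cannot be seen. The platform annotation gave 1 gene symbol for 30107 probes, several for 8 and none for 17103. Symbols were updated through gene IDs for 30068 probes and through accessions for 18, with the RefSeq table of GRCh38.p14, and 21 kept the platform's symbol. A gene was detected at a detection p under 0.01 on all 3 arrays, and its brightest such probe by mean raw signal was used. The number of arrays limits the precision of every level.

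Only 1 group was described, so no difference was tested and no p-value is reported. Lists were described by counts and, for most of them, by median percentiles beside those of all genes. The text names members of the 35 gene lists, the 20 brightest genes, the 10 with the widest range between arrays, and GAPDH and ACTB. Members, lists and rule were chosen with earlier results of these data known, and the searched motifs after the promoters had been read. Promoters were RefSeq sequences of GRCh38.p14, which matched 14407 of 17771 protein-coding genes with a probe. Alternatives were other detection rules, other background and scaling steps, the deposited values, other probes for a gene, and leaving out each array.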

Additional observations from a re-analysis of the deposited data

Results flagged for a closer look

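Signal was also seen in probes that carry no gene symbol here and so entered no description above. Of 17111 probes with no symbol or several, 2571 were detected on all 3 untreated arrays, 15.0% of them. The median level of the 2571 was 7.39 log2 units, the brightest stood at 14.23, and 437 lay above the 90th percentile of the detected genes. With 3 arrays in the group, no gene was put to a formal outlier test.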

How the results depend on the processing

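The number of detected genes was 8501 and ran from 6478, with a detection p of 0 on all 3 arrays, to 9967, with detection on at least 1 array. Detection p under 0.05 gave 9151, and leaving out 1 array gave 8629 to 8810. List members detected numbered 539, and 466 to 583 under these rules. At a detection p of 0, the members detected fell to 3 Toll-like receptors, 4 T and NK cell, 1 B cell, 2 granulocyte and progenitor and 3 stromal and epithelial markers. Red cell and platelet markers numbered 2 at a detection p under 0.05 or without replicate 2, and 3 with detection on at least 1 array. The median SD between arrays of 0.154 ran from 0.107 to 0.145 when 1 array was left out, and from 0.137 to 0.162 under other background and scaling steps. Without 1 array each SD is taken over 2 values and tends to be lower, so those medians are not directly comparable.

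Level percentiles of 550 named genes moved by at most 0.635 points under other background or scaling steps and by at most 8.84 points without 1 array. The choice of probe mattered more. With the dimmest detected probe of each gene the median shift was 6.19 points, 89 genes moved by over 10 points, and LDHA by 97.5. LAIR1 then lay at percentile 19.2, CD1C at 48.2, CD14 at 66.0 and IRF7 at 70.4. With the mean of the detected probes, 45 genes moved by over 10 points. Ranked among all 20034 genes on the array, 322 did. No paired analysis was possible because only 1 group was described and its results come from no test.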

Other observations

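Detected genes were counted by type, on an array where 17771 of the 20034 genes with a symbol were protein-coding. The array's content thus limits how many others could be detected, and the share detected within each type was not computed. Of the 8501 detected genes, 8496 entered this count. Of these, 8145 were protein-coding, 128 were transcribed pseudogenes, 87 were long non-coding RNAs, 87 were small nucleolar RNAs and 13 were microRNA genes. RPL13AP5, a pseudogene of RPL13A, averaged 14.17, and the parent gene averaged 12.91 on its own probe. The RPL13AP5 signal may include RNA of the parent gene, since binding of its probes to that RNA was not checked.

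Probes of the same gene disagreed more often than arrays did. Of 3432 detected genes with several probes, 2104 also had a probe that did not pass the detection rule. Among the 1937 genes with at least 2 detected probes, the 2 brightest lay over 1 log2 unit apart in 51.0% and over 2 units apart in 25.9%. CREB1 had 6 probes, of which 3 were detected, the brightest at 14.13 and the dimmest at 7.10.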
